A study of Schizosaccharomyces pombe with 9 samples.

Results

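The 41 proteasome genes of the fission yeast Schizosaccharomyces pombe were compared between wild type and 2 histone mutant genotypes. They are the genes whose cellular component terms, as deposited by the authors for 5212 genes, name the proteasome. The polyubiquitin gene ubi4 was to be left out by the same rule, but carried no such term. By their terms, 14 of them encode the core particle (7 subunits of the alpha rings and 7 of the beta rings) and 19 the regulatory particle (8 of the base, 10 of the lid and rpn10, listed under both). The other 8 are associated factors: the chaperone genes nas2, ecm29 and SPCC18.17c, the deubiquitinase genes ubp6, uch1 and uch2, the shuttle factor gene rhp23 and the F-box gene pof10. Of these, nas2, SPCC18.17c and pof10 carry the base term, although their deposited descriptions name no subunit.

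Poly(A) RNA of whole cells was sequenced in 3 libraries each of WT, of htb1-E112K (E112K here) and of htb1-E112K clr6-1 (E112K clr6-1). The gene htb1 encodes histone H2B, in which E112K replaces a glutamate by a lysine, and clr6-1 is a mutant form of clr6, which encodes a class I histone deacetylase. Both mutant genotypes carry E112K, and a clr6-1 strain without it was not analysed here, so the comparison of E112K clr6-1 with E112K shows the addition of clr6-1 only in the E112K background. No source used here gives the strain histories or growth conditions.

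The proteasome degrades proteins that carry chains of ubiquitin. In its core particle, a barrel of stacked rings, the alpha rings gate the entry and the beta rings hold the proteolytic sites inside. The regulatory particle caps the barrel: its base holds the ATPases that unfold and feed in the substrate, and its lid holds the enzyme that removes the ubiquitin chain. In budding yeast the subunit genes are held at similar levels by the transcription factor Rpn4, and in fission yeast most proteasomes lie in the nucleus, where Cut8 anchors them.

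Libraries held 16469576 to 20013351 counts. In WT, between 1.00 and 1.02% of them fell on the 41 genes. That share was 1.15 to 1.17% for the E112K libraries and 0.948 to 0.966% for those of E112K clr6-1. Levels below are CPM, the count scaled by library size and by edgeR's TMM factor, and all 41 genes passed the filter on low counts. A gene was called where edgeR's quasi-likelihood test gave a Benjamini-Hochberg adjusted p under 0.05 over 5119 genes, and each adjusted p below is from that test. The labels do not say that libraries of a group came from separate cultures, so these values measure only the spread between the libraries, which may be technical. A culture could also hold mating, meiotic or sporulating cells. Of 10 markers of such cells 6 rose and none fell in E112K. In E112K clr6-1 against WT 9 rose and 1, rec8, fell (log2 fold change -0.56). The median log2 fold changes of the 10 were 0.57 and 1.78. Of all tested genes 37.6% were called higher and 38.9% lower in E112K, and 41.7% and 42.0% in E112K clr6-1 against WT. Medians of all tested genes were -0.01 and 0.00. The summed CPM of the markers ranged from 282 to 302 (WT), from 401 to 431 (E112K) and from 826 to 853 (E112K clr6-1), with none at 0. The part of mating, meiotic or sporulating cells in the results below was not tested.

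In E112K most proteasome genes were somewhat more abundant than in WT, and in E112K clr6-1 most were less abundant than in E112K. Against WT, E112K had 27 of the 41 genes higher (65.9%), 7 lower (17.1%) and 7 not called, where 37.6% of all tested genes were called higher and 38.9% lower. E112K clr6-1 had 13 higher (31.7%), 21 lower (51.2%) and 7 not called against WT, where 41.7% of all genes were called higher and 42.0% lower. Against E112K it had 6 higher (14.6%), 29 lower (70.7%) and 6 not called, where 40.2% of all genes were called higher and 38.6% lower. The changes were small. The median log2 fold change of the 41 genes was 0.17 in E112K and -0.08 in E112K clr6-1 against WT, and -0.29 between the mutant genotypes, beside -0.01, 0.00 and 0.01 for all tested genes. The counts and medians by class below are to be read beside these same values of all tested genes.

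Against WT most of these differences stayed under 1.25-fold. In E112K 11 genes were called and at least 1.25-fold higher and 1 at least 1.25-fold lower, where all genes gave 22.3% and 18.9%. In E112K clr6-1 against WT these counts were 2 and 8, where all genes gave 28.8% and 24.6%. Between the mutant genotypes they were 4 and 19, where all genes gave 23.2% and 21.6%. Most differences still exceeded the spread between libraries. The 3 libraries of E112K did not overlap those of WT for 36 of the 41 genes, 28 higher and 8 lower, a share of 87.8% beside 78.0% of all genes, from which nothing is read about the proteasome genes. Without overlap were 35 of 41 genes for E112K clr6-1 against WT, 13 higher and 22 lower (84.8% of all genes), and 36 of 41 against E112K, 6 higher and 30 lower (80.5%).

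**Figure D1:**
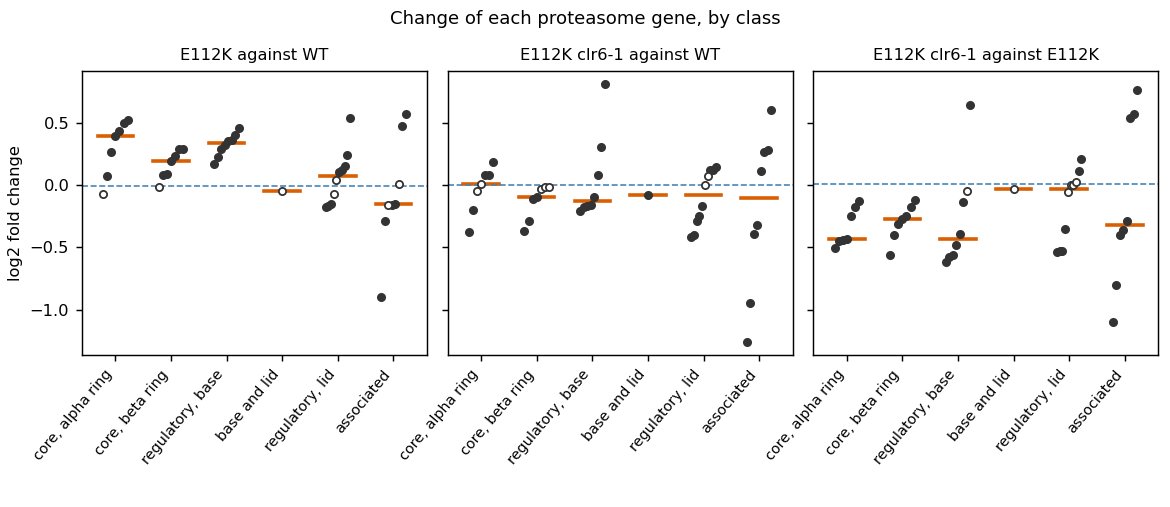
Log2 fold change of each of the 41 proteasome genes in the 3 comparisons, by class. Filled points were called (edgeR, adjusted p under 0.05), open points were not, bars mark class medians and the dashed line marks the median of all tested genes. In E112K every base gene lies above 0, and against E112K every core gene of E112K clr6-1 lies below 0.

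The genes are spread over the genome, with 17 on chromosome I, 16 on II and 8 on III. Their promoters were read from the RefSeq genome (assembly ASM294v3) as the 250 bases before each transcript start, on both strands. The Rpn4 element of budding yeast, PACE (GGTGGCAAA), is in 0 of the 41 promoters and in 0.0781% of 5123 promoters of protein-coding genes. The core of the heat-shock element (GAANNTTC, its own reverse complement) is in 3 of the 41, or 7.32%, and in 9.49% of all. The cyclic AMP response element (CRE), the site of Atf1 (TGACGT), is in 1 of 41, or 2.44%, and in 5.5% of all. HomolD (CAGTCACA), a core promoter element of fission yeast ribosomal protein genes, is in 1 of 41, or 2.44%, and in 2.62% of all. A missing match says only that these letters are not in the window. The 5 genes with a match were all called higher in E112K, as were 27 of the 41. Their windows of 60 bases are shown 5′ to 3′ on the gene's strand with the matched letters in capitals. In rpn12 and pre10 the match is the reverse complement of the motif. The matches start 203 bases before the transcript start in pre1 and pre6, 196 in pre8, 122 in rpn12 and 49 in pre10, and no gene holds more than 1 of the motifs.
pre1: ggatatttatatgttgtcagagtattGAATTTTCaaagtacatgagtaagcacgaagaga
pre6: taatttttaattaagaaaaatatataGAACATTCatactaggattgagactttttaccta
pre8: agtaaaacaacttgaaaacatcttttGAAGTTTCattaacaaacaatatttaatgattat
rpn12: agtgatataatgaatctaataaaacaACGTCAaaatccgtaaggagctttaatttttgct
pre10: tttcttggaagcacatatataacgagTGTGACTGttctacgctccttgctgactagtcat
The gene pre1 (minus strand) lies on chromosome I, pre6 and rpn12 (plus) on II, and pre8 and pre10 (plus) on III. The windows of pre1, rpn12 and pre10 also hold part of an annotated long non-coding RNA, which for pre10 is rrk1.

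The alpha ring genes, which encode the gate of the core particle, held the largest rises among core genes in E112K. Of 7 genes, 6 rose and scl1 was not called, with a median log2 fold change of 0.39. In E112K clr6-1 against WT 3 were higher, 2 lower and 2 not called, with a median of 0.01. The gene of the alpha 7 subunit, pre10, measured 311, 329 and 320 CPM in WT, 475, 453 and 450 in E112K and 324, 324 and 319 in E112K clr6-1. The E112K libraries lay above all others and the WT and E112K clr6-1 libraries overlapped. Its log2 fold change was 0.52 (SE 0.032, adjusted p = 9.18e-09) in E112K and 0.01 (SE 0.032, adjusted p = 0.732) in E112K clr6-1 against WT, the latter with a 95% interval of -0.06 to 0.08. The alpha 6 gene pre5 gave 309, 314 and 323 CPM in WT, 440, 444 and 456 in E112K and 328, 339 and 329 in E112K clr6-1. It rose in E112K, by 0.50 (SE 0.030, adjusted p = 6.39e-09) on the log2 scale, and stood slightly above WT in E112K clr6-1, at 0.08 (SE 0.030, adjusted p = 0.0336). The latter call was lost without WT replicate 1 or 2 or E112K clr6-1 replicate 2 (log2 fold change 0.06 to 0.07, adjusted p = 0.0732 to 0.108).

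The gene pre9, of alpha 3, gave 281, 280 and 283 CPM in WT, 390, 367 and 379 in E112K and 315, 313 and 327 in E112K clr6-1, in 3 separate groups with E112K clr6-1 in the middle. Its log2 fold change was 0.43 (SE 0.031, adjusted p = 5.41e-08) in E112K and 0.18 (SE 0.032, adjusted p = 1.61e-04) in E112K clr6-1, the largest rise of the ring there. Of pre8, for alpha 2, the libraries measured 330, 325 and 322 CPM in WT, 445, 416 and 421 in E112K and 311, 315 and 317 in E112K clr6-1. It rose in E112K, by 0.39 (SE 0.031, adjusted p = 1.14e-07), and was not called in E112K clr6-1 against WT. The alpha 4 gene pre6 measured 265, 258 and 268 CPM in WT, 326, 304 and 316 in E112K and 281, 271 and 281 in E112K clr6-1. It rose by 0.26 in E112K, while its log2 fold change of 0.08 in E112K clr6-1 (adjusted p = 0.0449) lost its call without any of 5 libraries: WT 1 or 2, E112K 3, or E112K clr6-1 1 or 3 (0.06 to 0.08, adjusted p = 0.0575 to 0.131).

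The other two alpha genes differed mainly in E112K clr6-1. The alpha 5 gene pup2 measured 261, 263 and 265 CPM in WT, 282, 270 and 277 in E112K and 200, 201 and 207 in E112K clr6-1. It lay lowest in E112K clr6-1, with log2 fold changes of -0.38 (SE 0.028, adjusted p = 4.46e-08) against WT and -0.45 against E112K, while the groups of WT and E112K stood close together. Its rise of 0.07 in E112K (adjusted p = 0.0321) lost its call without WT 1 or 2 or E112K 1 or 3 (0.06 to 0.07, adjusted p = 0.0647 to 0.104). For scl1, of alpha 1, the values were 272, 263 and 274 CPM in WT, 264, 249 and 257 in E112K and 242, 228 and 235 in E112K clr6-1. It fell in E112K clr6-1 against WT (-0.20 (SE 0.033, adjusted p = 1.01e-04)) and E112K (-0.13). In E112K its libraries overlapped those of WT and it was not called (-0.07, adjusted p = 0.0662). It became a call without WT 2 or E112K 1 (-0.09, adjusted p = 0.0486 and 0.0294). With the replicate number as a block it was also called (-0.07, adjusted p = 0.0411). All 7 alpha genes fell from E112K to E112K clr6-1, by 0.13 (scl1) to 0.51 (pre10) on the log2 scale.

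**Figure D2:**
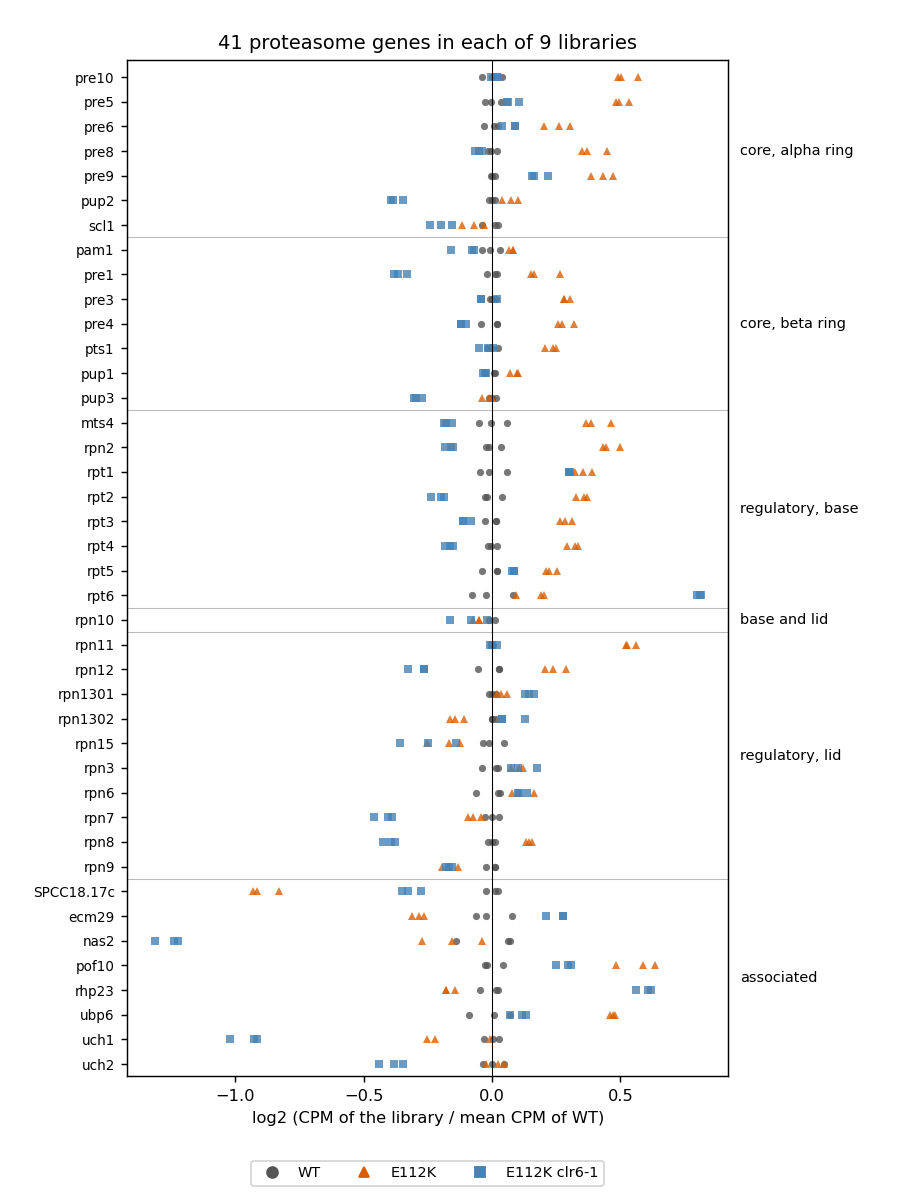
Level of each of the 41 proteasome genes in each of 9 libraries, as the log2 ratio of its CPM to the mean CPM of the 3 WT libraries (x axis), by gene and class (y axis). Among alpha and base genes the E112K points lie to the right of WT for all but scl1. For pre5, pre6, pre9, rpt1, rpt5 and rpt6 the E112K clr6-1 points lie to the right of WT as well, furthest for rpt6. Those of nas2 lie furthest to the left of all genes.

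The beta ring genes line the proteolytic chamber. In E112K 6 of 7 rose and pup3 was not called, with a median of 0.19. In E112K clr6-1 against WT, 0 rose, 4 fell and 3 were not called, with a median of -0.10, and all 7 fell against E112K, with a median of -0.27. The 3 genes of the catalytic subunits are pre3 (caspase-like site), pup1 (trypsin-like) and pts1 (chymotrypsin-like). For pre3 the libraries measured 211, 209 and 208 CPM in WT, 258, 254 and 254 in E112K and 203, 203 and 212 in E112K clr6-1, and for pts1 294, 300 and 291 CPM in WT, 351, 340 and 348 in E112K and 296, 285 and 292 in E112K clr6-1. In both genes the E112K libraries lay above all 6 others, which overlapped. The log2 fold changes in E112K were 0.29 (SE 0.028, adjusted p = 7.27e-07) for pre3 and 0.23 (SE 0.029, adjusted p = 7.69e-06) for pts1, and neither gene was called in E112K clr6-1 against WT. The values of pup1 were 260, 259 and 253 CPM in WT, 277, 271 and 276 in E112K and 253, 254 and 252 in E112K clr6-1, with the E112K libraries again above the rest, a log2 fold change of only 0.09 (SE 0.026, adjusted p = 0.00684), and no call in E112K clr6-1 against WT.

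Among the beta subunits without a proteolytic site, pre1 (beta 4) moved furthest between the mutant genotypes. It measured 220, 225 and 226 CPM in WT, 268, 250 and 248 in E112K and 171, 173 and 177 in E112K clr6-1, in 3 groups without overlap. Its log2 fold change was 0.19 (SE 0.033, adjusted p = 1.68e-04) in E112K and -0.37 (SE 0.034, adjusted p = 3.58e-07) in E112K clr6-1 against WT. Between the mutant genotypes it was -0.56. The beta 7 gene pre4 measured 240, 240 and 230 CPM in WT, 296, 286 and 283 in E112K and 221, 218 and 218 in E112K clr6-1 and showed the same order, at 0.29 in E112K and -0.11 in E112K clr6-1 (adjusted p = 1.50e-06 and 0.00401). The beta 3 gene pup3 did not follow it. Its libraries gave 217, 215 and 213 CPM in WT, 215, 213 and 209 in E112K and 174, 175 and 178 in E112K clr6-1, overlapping between WT and E112K and lower in E112K clr6-1 (-0.29 (SE 0.026, adjusted p = 2.14e-07)). The beta 6 gene pam1 measured 189, 194 and 185 CPM in WT, 201, 199 and 201 in E112K and 181, 170 and 180 in E112K clr6-1, a log2 fold change of 0.08 in E112K and -0.10 in E112K clr6-1. Its rise (adjusted p = 0.0303) lost its call without any 1 of the 3 E112K libraries or WT 1 or 3 (0.06 to 0.08, adjusted p = 0.0562 to 0.107). Its fall (adjusted p = 0.00917) lost its call without WT 2 or E112K clr6-1 2 (-0.08 to -0.07, adjusted p = 0.0591 to 0.0641).

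The base genes, 6 ATPases and the scaffold genes mts4 (Rpn1) and rpn2, all rose in E112K, 8 of 8, with a median log2 fold change of 0.33. With clr6-1 added, 5 fell below WT and 3 stayed above it, and the median was -0.13. The scaffold gene rpn2 measured 555, 560 and 579 CPM in WT, 768, 798 and 762 in E112K and 505, 498 and 509 in E112K clr6-1, and mts4 431, 446 and 465 CPM in WT, 584, 616 and 576 in E112K and 392, 395 and 401 in E112K clr6-1. In both the 3 groups did not overlap, with E112K highest and E112K clr6-1 lowest. The log2 fold changes of rpn2 were 0.46 (SE 0.031, adjusted p = 2.31e-08) in E112K, -0.16 (SE 0.031, adjusted p = 3.01e-04) in E112K clr6-1 against WT and -0.62 between the mutant genotypes. Those of mts4 were 0.40 (SE 0.036, adjusted p = 3.61e-07), -0.18 (SE 0.036, adjusted p = 5.38e-04) and -0.58 in the same order.

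Of the ATPase genes, whose products form the ring that pulls substrates in, rpt2, rpt3 and rpt4 also stood above WT in E112K and below it in E112K clr6-1. The libraries of rpt2 measured 370, 368 and 385 CPM in WT, 470, 484 and 481 in E112K and 327, 318 and 329 in E112K clr6-1, with log2 fold changes of 0.35 (SE 0.030, adjusted p = 2.21e-07) and -0.21 (SE 0.030, adjusted p = 3.05e-05). Those of rpt4 measured 367, 364 and 373 CPM in WT, 460, 464 and 450 in E112K and 331, 324 and 328 in E112K clr6-1, with 0.32 and -0.17. Those of rpt3 measured 296, 305 and 305 CPM in WT, 375, 368 and 363 in E112K and 279, 285 and 279 in E112K clr6-1, with 0.29 and -0.10. In each of these genes the 3 groups were apart. The gene rpt5 measured 351, 337 and 351 CPM in WT, 403, 412 and 400 in E112K and 365, 367 and 367 in E112K clr6-1, and rose by 0.22 in E112K. Its log2 fold change of 0.08 in E112K clr6-1 (adjusted p = 0.0204) lost its call without WT 2 or E112K clr6-1 3 (0.06 to 0.08, adjusted p = 0.0508 to 0.0841).

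The ATPase genes rpt1 and rpt6 departed from this order. For rpt1 the libraries measured 240, 246 and 258 CPM in WT, 325, 317 and 310 in E112K and 305, 305 and 306 in E112K clr6-1. Both mutant genotypes lay above WT, by 0.36 (SE 0.033, adjusted p = 4.73e-07) in E112K and 0.30 (SE 0.033, adjusted p = 1.65e-06) in E112K clr6-1 on the log2 scale, and the difference between them was not called (-0.05 (SE 0.033, adjusted p = 0.143), 95% interval -0.13 to 0.02). The rpt6 libraries measured 183, 190 and 204 CPM in WT, 222, 220 and 206 in E112K and 339, 338 and 336 in E112K clr6-1. It rose weakly in E112K, by 0.17 (SE 0.041, adjusted p = 0.00256), and more in E112K clr6-1, by 0.81 (SE 0.041, adjusted p = 7.61e-10), or 1.75-fold. It was the 1 base or core gene called higher in E112K clr6-1 than in E112K, by 0.64 (SE 0.041, adjusted p = 1.22e-08). Among the 33 subunit genes it was the 1 gene called and at least 1.25-fold higher in E112K clr6-1 than in WT.

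The gene rpn10, whose product receives ubiquitin chains between base and lid, was not called in E112K or between the mutant genotypes. It measured 142, 140 and 140 CPM in WT, 134, 136 and 136 in E112K and 139, 133 and 126 in E112K clr6-1, with log2 fold changes of -0.05 in E112K and -0.08 in E112K clr6-1. The second was called at an adjusted p of 0.0496, a call lost under 13 of 14 alternatives (-0.08 to -0.04, adjusted p = 0.0583 to 0.240) and kept without E112K clr6-1 replicate 1.

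The lid genes did not move together. In E112K 5 of 10 rose, 3 fell and 2 were not called, with a median of 0.07. In E112K clr6-1 against WT 3 rose, 5 fell and 2 were not called, and against E112K 2 rose, 4 fell and 4 were not called. Of all tested genes 37.6% were called higher and 38.9% lower in E112K. In E112K clr6-1 these shares were 41.7% and 42.0% against WT, and 40.2% and 38.6% against E112K. The gene rpn11 encodes the metalloprotease that cuts ubiquitin chains off the substrate, and it rose most. It measured 311, 312 and 310 CPM in WT, 459, 446 and 448 in E112K and 309, 315 and 311 in E112K clr6-1. The E112K libraries lay above all others by a wide margin, while WT and E112K clr6-1 overlapped. The log2 fold change was 0.54 (SE 0.027, adjusted p = 1.27e-09) in E112K and 0.00 (SE 0.027, adjusted p = 0.907) in E112K clr6-1, with a 95% interval of -0.06 to 0.06.

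The lid genes rpn12 and rpn8, the latter encoding the partner of Rpn11 in a dimer, were higher in E112K and lower in E112K clr6-1. The first measured 199, 211 and 211 CPM in WT, 253, 239 and 244 in E112K and 172, 165 and 172 in E112K clr6-1, with log2 fold changes of 0.24 (SE 0.034, adjusted p = 2.25e-05) and -0.29 (SE 0.034, adjusted p = 4.48e-06). The second measured 362, 355 and 359 CPM in WT, 400, 393 and 397 in E112K and 276, 267 and 273 in E112K clr6-1, with 0.15 (SE 0.027, adjusted p = 2.97e-04) and -0.40 (SE 0.028, adjusted p = 1.85e-08). Neither gene's groups overlapped, and both fell between the mutant genotypes, by 0.53 and 0.54 on the log2 scale. The lid gene rpn7 had the largest fall of the lid against WT in E112K clr6-1. It measured 269, 279 and 274 CPM in WT, 260, 266 and 257 in E112K and 209, 199 and 207 in E112K clr6-1, with a log2 fold change of -0.42 (SE 0.030, adjusted p = 2.64e-08). In E112K it stood at -0.07 (adjusted p = 0.0508), which became a call without WT 1, E112K 2 or E112K clr6-1 2 (-0.08 to -0.07, adjusted p = 0.0379 to 0.0455) and without the count filter.

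The lid genes rpn9, rpn15, rpn3 and rpn6 were not called between the mutant genotypes. For rpn9 the libraries gave 277, 284 and 284 CPM in WT, 257, 246 and 250 in E112K and 251, 253 and 249 in E112K clr6-1, lower than WT by the same step in both (-0.17 and -0.17 log2). For rpn15, which encodes the small intrinsically disordered subunit Dss1, they gave 118, 123 and 116 CPM in WT, 106, 99.7 and 109 in E112K and 108, 100 and 92.7 in E112K clr6-1, likewise lower, by -0.18 (SE 0.051, adjusted p = 0.00578) and -0.25 (SE 0.051, adjusted p = 6.15e-04). For rpn3 they gave 266, 256 and 267 CPM in WT, 286, 283 and 277 in E112K and 277, 282 and 297 in E112K clr6-1, and for rpn6 295, 313 and 315 CPM in WT, 345, 325 and 331 in E112K and 338, 331 and 330 in E112K clr6-1. Both of the latter rose slightly in each mutant genotype, rpn3 by 0.10 and 0.12 and rpn6 by 0.12 and 0.12. The rise of rpn3 in E112K (adjusted p = 0.0118) lost its call without WT replicate 2 (0.08, adjusted p = 0.0571).

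Fission yeast has 2 genes for the ubiquitin receptor Rpn13, the lowest of the subunit genes per length. The first, rpn1301, measured 82.6, 81.9 and 83.6 CPM in WT, 83.7, 86.0 and 84.7 in E112K and 90.3, 92.6 and 91.4 in E112K clr6-1, not called in E112K (0.04) and higher in E112K clr6-1 (0.14 (SE 0.033, adjusted p = 0.00111)). The second, rpn1302, measured 110, 109 and 109 CPM in WT, 101, 98.5 and 97.4 in E112K and 114 ± 3.65 (mean ± SD) in E112K clr6-1, lower in E112K (-0.15 (SE 0.033, adjusted p = 0.00117)) and not called in E112K clr6-1 (0.07). Both rose from E112K to E112K clr6-1, by 0.11 and 0.21. Whether the pair differed from each other in response was not tested.

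The associated factors held the largest falls of the 41 genes in each comparison, and others of them rose. In E112K 2 of 8 rose, 4 fell and 2 were not called. In E112K clr6-1 4 rose and 4 fell against WT, and 3 rose and 5 fell against E112K. Of all tested genes 37.6% were called higher and 38.9% lower in E112K. In E112K clr6-1 these shares were 41.7% and 42.0% against WT, and 40.2% and 38.6% against E112K. The chaperone gene nas2, whose product helps to assemble the ATPase ring, had the largest fall of the 41. Its libraries gave 73.8, 73.5 and 63.8 CPM in WT, 68.5, 63.1 and 58.2 in E112K and 30.1, 28.3 and 29.8 in E112K clr6-1. WT and E112K overlapped, and all E112K clr6-1 libraries lay below both. The log2 fold change was -1.26 (SE 0.073, adjusted p = 2.95e-09) in E112K clr6-1 against WT and -1.10 (SE 0.074, adjusted p = 2.04e-08) against E112K. In E112K it was -0.16 (adjusted p = 0.0510), which became a call without WT 3 or E112K 1 (-0.22, adjusted p = 0.00538 to 0.0130) and without the count filter. It was also a call with the replicate number as a block (-0.15, adjusted p = 0.0288).

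The predicted assembly chaperone gene SPCC18.17c also lay below WT in both mutant genotypes, furthest in E112K. It measured 117, 120 and 121 CPM in WT, 66.9, 62.4 and 63.0 in E112K and 93.2, 94.9 and 98.3 in E112K clr6-1, with the E112K clr6-1 libraries between those of E112K and WT. Its log2 fold change was -0.90 (SE 0.038, adjusted p = 2.30e-10) in E112K, the largest fall of the 41 there, and -0.32 (SE 0.037, adjusted p = 2.53e-06) in E112K clr6-1. For ecm29, which encodes an adaptor that binds core and regulatory particle, the libraries measured 181, 176 and 194 CPM in WT, 151, 148 and 153 in E112K and 213, 223 and 223 in E112K clr6-1. It fell in E112K (-0.29 (SE 0.038, adjusted p = 1.32e-05)) and rose in E112K clr6-1 (0.26 (SE 0.037, adjusted p = 2.35e-05)).

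The shuttle factor gene rhp23, the Rad23 homologue that brings ubiquitinated proteins to the proteasome, had the same order as ecm29. It measured 182, 181 and 173 CPM in WT, 158, 162 and 158 in E112K and 273, 275 and 264 in E112K clr6-1. The 3 groups were apart, with E112K lowest and E112K clr6-1 highest. The log2 fold change was -0.16 (SE 0.030, adjusted p = 2.40e-04) in E112K, 0.60 (SE 0.029, adjusted p = 5.51e-10) in E112K clr6-1 against WT and 0.76 (SE 0.029, adjusted p = 1.26e-10) between the mutant genotypes. It and ecm29 were the only 2 of the 41 called lower in E112K and higher in E112K clr6-1 against WT.

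The 3 deubiquitinase genes differed. The gene ubp6, whose product trims chains at the base, measured 155, 166 and 173 CPM in WT, 229, 230 and 227 in E112K and 173, 181 and 179 in E112K clr6-1. It rose in E112K, by 0.47 (SE 0.037, adjusted p = 9.45e-08), and its log2 fold change of 0.11 in E112K clr6-1 (adjusted p = 0.0151) overlapped WT and lost its call without WT 1 or E112K clr6-1 2 (0.07 to 0.10, adjusted p = 0.0507 to 0.0696). The gene uch1 measured 59.8, 62.3 and 61.2 CPM in WT, 51.3, 52.3 and 60.8 in E112K and 32.1, 32.4 and 30.1 in E112K clr6-1, lowest in E112K clr6-1. It fell there by 0.95 against WT and 0.80 against E112K (adjusted p = 1.68e-08 and 1.59e-07). The product of uch2 binds the regulatory particle through Rpn13. Libraries of uch2 measured 125, 122 and 129 CPM in WT, 127, 129 and 123 in E112K and 95.8, 92.1 and 98.3 in E112K clr6-1. They overlapped between WT and E112K and were lower in E112K clr6-1 (-0.39 (SE 0.035, adjusted p = 2.45e-07)). The log2 fold change of uch1 in E112K, -0.15 (adjusted p = 0.0375), lost its call without WT 2 or 3 or E112K 1 or 2 (-0.15 to -0.11, adjusted p = 0.0632 to 0.147), with DESeq2 and in a fit of these 2 groups alone. F-box proteins are substrate receptors of ubiquitin ligases. The F-box gene pof10 measured 99.0, 99.7 and 104 CPM in WT, 141, 152 and 157 in E112K and 124, 125 and 120 in E112K clr6-1. It rose in both genotypes, by 0.57 (SE 0.041, adjusted p = 4.19e-08) in E112K, the largest rise of the 41 there, and 0.28 (SE 0.042, adjusted p = 2.85e-05) in E112K clr6-1.

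**Figure D3:**
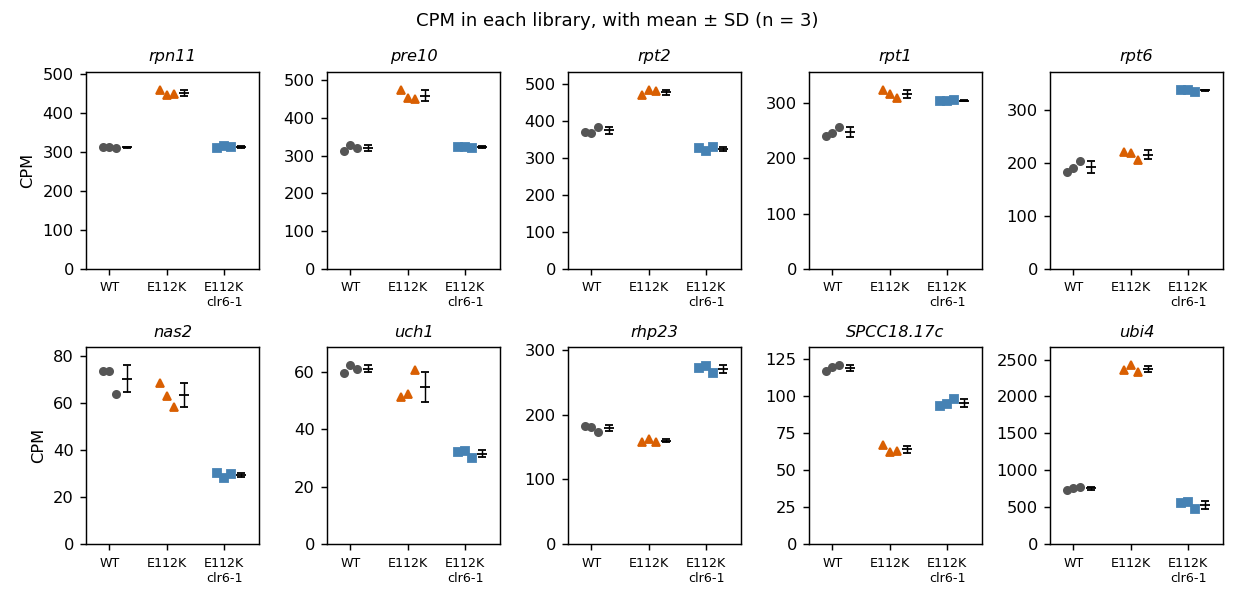
CPM of 9 proteasome genes and of the polyubiquitin gene ubi4 in each library (points), with the mean ± SD of each group of 3 (bars), on axes that start at 0. For rpn11, pre10 and rpt2 only E112K stands above WT, for rpt1 and rpt6 both mutant genotypes do, and nas2 and uch1 are lowest in E112K clr6-1.

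Put together over the 3 comparisons, 23 of the 27 genes higher in E112K than in WT were lower in E112K clr6-1 than in E112K, rpt6 was higher, and rpt1, rpn3 and rpn6 were not called. These comparisons share libraries, so the counts are a description. The same patterns were not counted over all tested genes. Whether they are more frequent among proteasome genes than among other genes was therefore not tested. Of the 27, 11 ended below WT in E112K clr6-1 (mts4, pam1, pre1, pre4, pup2, rpn12, rpn2, rpn8, rpt2, rpt3 and rpt4), 10 stayed above it and 6 were not called (pre10, pre3, pre8, pts1, pup1 and rpn11). Of the 7 genes not called in E112K, 6 were lower in E112K clr6-1 than in WT and 1, rpn1301, was higher. The gene uch1 alone was called lower in all 3 comparisons, and rpt6 alone higher in all 3. Some of these calls did not hold under every alternative, as given by gene above. In E112K the call of uch1 was lost under 6 of 14 alternatives, that of pam1 under 5 and that of pup2 under 4.

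The authors' FPKM values give transcript levels per length, which can be compared between genes. In WT the 33 core and regulatory particle genes spanned 48.4 (rpn1301) to 296 FPKM (pre5), with a median of 185, and 28 of 33 lay within 1.5-fold of it. Core genes were the more even, from 136 (pre3) to 296 FPKM, and regulatory genes ran from 48.4 to 264 FPKM (rpn8). The order was not sharp: 23 of 32 neighbours in the order of WT levels overlapped between their libraries. Separate from their lower neighbour were pre5 (296 ± 4.10 FPKM, mean ± SD, n = 3), pup2 (285 ± 3.04), and near the bottom rpn6 (102 ± 3.51) and rpn1302 (83.0 ± 1.02), among others, and rpn1301 was lowest (48.4 ± 0.136). The ratio of highest to lowest level was 6.11 in WT, 8.45 in E112K and 5.82 in E112K clr6-1. In E112K pre5 stood at 413 ± 10.4 FPKM and in E112K clr6-1 at 305 ± 4.83, the highest of the 33 in each genotype. The associated factors were scarcer, from 34.7 (ecm29) to 126 FPKM (rhp23) in WT with a median of 67.2.

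**Figure D4:**
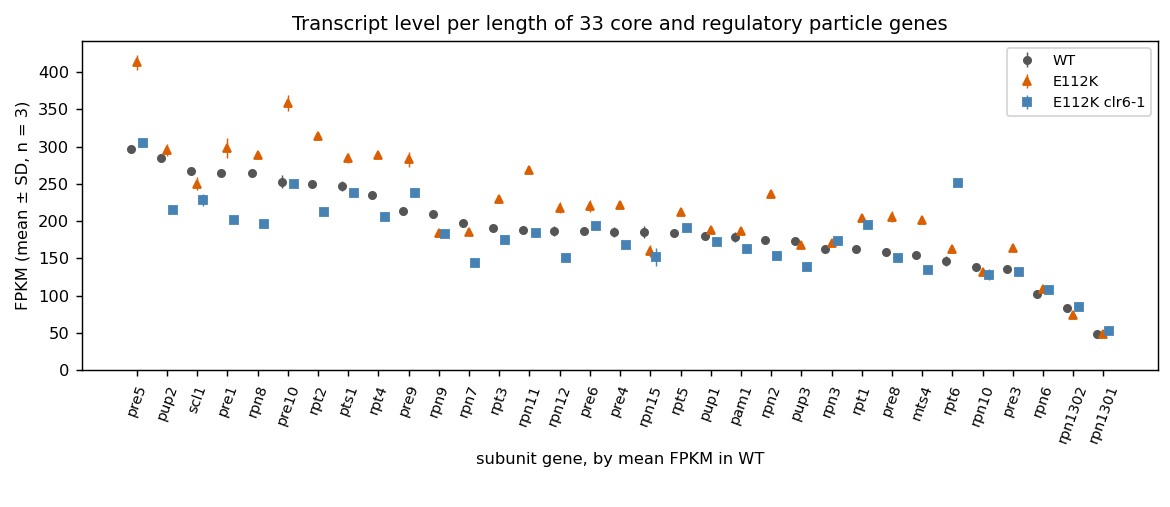
Mean ± SD (n = 3) of the authors' FPKM for the 33 core and regulatory particle genes, ordered by their WT level. In WT 28 of 33 lie within 1.5-fold of the median of 185 FPKM, rpn1301 is lowest in each genotype, and rpt6 is the regulatory gene with the highest level in E112K clr6-1.

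No source used here gives the strand used for counting. By the RefSeq annotation 38 of the 41 genes overlap another annotated gene, each of them at least partly on the opposite strand. Reads of such a pair could not be told apart if strand was ignored. On the opposite strand, annotated long non-coding RNAs cover 100% of pam1, pof10, pup2, rpt5 and uch1. They cover 91% of rhp23, 90.8% of pre5 and 85.8% of nas2, and parts of other genes. For 16 genes an overlapping neighbour is protein-coding. The longest overlap of the 41 with a protein-coding gene is that of pre8 with SPCC1442.07c, 921 bases or 39.2% of pre8. The level of SPCC1442.07c was likewise highest in E112K, at 9.95 CPM in WT, 20.3 in E112K and 9.71 in E112K clr6-1. The next, 530 bases or 20.2% of ubp6, is with the ribosomal protein gene rpl2401, whose level moved against it (543, 341 and 434 CPM). The part of these neighbours in the counts was not tested.

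Outside the term, 8 genes have a description that names the proteasome, and fub2 among them changed more than any of the 41. The gene fub2, predicted like fub1 to encode a relative of the mammalian proteasome inhibitor PI31, measured 2.41, 2.08 and 2.33 CPM in WT, 42.8, 43.2 and 44.1 in E112K and 26.5, 22.6 and 23.1 in E112K clr6-1. It was a low gene in WT, and both mutant genotypes lay far above it, highest in E112K. The log2 fold change was 4.25 (SE 0.097, adjusted p = 5.40e-13) in E112K and 3.40 (SE 0.10, adjusted p = 5.71e-12) in E112K clr6-1. The gene fub1 rose in E112K, by 0.51 (SE 0.066, adjusted p = 1.33e-05), and was slightly lower than WT in E112K clr6-1, at -0.16 (SE 0.069, adjusted p = 0.0421). The chaperone gene nas6 measured 30.6, 32.9 and 29.7 CPM in WT, 46.7, 46.5 and 41.2 in E112K and 80.8, 77.6 and 79.4 in E112K clr6-1, rising in E112K (0.53 (SE 0.060, adjusted p = 3.76e-06)) and further in E112K clr6-1 (1.35 (SE 0.058, adjusted p = 1.44e-10)). The predicted assembly chaperone gene SPCC24B10.16c fell in E112K (-0.37 (SE 0.057, adjusted p = 5.58e-05)) and rose in E112K clr6-1 (0.71 (SE 0.054, adjusted p = 4.91e-08)). On the opposite strand, annotated long non-coding RNAs overlap 80.7% of fub2, 53.9% of fub1 and 33.9% of nas6. The protein-coding gene swt1 overlaps 66.5% of SPCC24B10.16c on the opposite strand. The part of these neighbours in the counts was not tested.

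The gene cut8, of the nuclear anchor of the proteasome, measured 136, 138 and 127 CPM in WT, 193, 191 and 204 in E112K and 109 ± 3.23 (mean ± SD) in E112K clr6-1, highest in E112K and lowest in E112K clr6-1. Its log2 fold changes were 0.55 (SE 0.039, adjusted p = 3.78e-08) and -0.29 (SE 0.041, adjusted p = 1.72e-05), and 70% of it overlaps scs22 on the opposite strand. The maturation factor gene ump1, whose product helps core particles to assemble, gave 0.13 in E112K (adjusted p = 0.00595) and -0.03 in E112K clr6-1 (adjusted p = 0.494). The lid subunit Rpn5 has 2 near-identical genes, rpn501 and rpn502, between which the counting could split reads, so their values are uncertain. They measured 0.15 and -0.04 in E112K and 0.01 and -0.27 in E112K clr6-1 on the log2 scale.

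The lists of the wider pathway are read beside all tested genes, of which 37.6% were called higher and 38.9% lower in E112K, 41.7% and 42.0% in E112K clr6-1 against WT, and 40.2% and 38.6% between the mutant genotypes, with median log2 fold changes of -0.01, 0.00 and 0.01. Of the 5 genes that encode ubiquitin, the tag that marks substrates, 1 rose and 4 fell in E112K and all 5 fell in E112K clr6-1 against WT, with a median log2 fold change of -0.21 in each. The polyubiquitin gene ubi4, known to be induced by stress, changed more in E112K than any of the 41 and measured 733, 766 and 768 CPM in WT, 2363, 2423 and 2337 in E112K and 561, 568 and 474 in E112K clr6-1. It stood 3.14-fold higher in E112K than in WT (1.65 (SE 0.057, adjusted p = 3.13e-11)) and fell below WT in E112K clr6-1 (-0.50 (SE 0.057, adjusted p = 2.67e-06)). The other 4, fusions of ubiquitin with a ribosomal protein (ubi1, uep1, ubi3 and ubi5), fell in both. Their log2 fold changes ran from -0.44 (uep1) to -0.13 (ubi3) in E112K and from -0.22 (ubi5) to -0.15 (ubi1) in E112K clr6-1. Since all 5 genes encode ubiquitin, their sequences are alike in part and the counting could misassign reads between them, which was not tested.

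Among 13 genes of ubiquitin activation and conjugation, 5 rose and 4 fell in E112K, 4 rose and 5 fell in E112K clr6-1 against WT, and 2 rose and 8 fell against E112K. The median log2 fold changes were 0.06, -0.06 and -0.17 in the same order. The membrane-bound conjugating enzyme gene ubc6 measured 67.5, 69.5 and 62.3 CPM in WT, 127, 119 and 118 in E112K and 79.6, 73.7 and 77.0 in E112K clr6-1, with log2 fold changes of 0.87 (SE 0.048, adjusted p = 3.00e-09) and 0.21 (SE 0.049, adjusted p = 0.00157) against WT. The gene of the ubiquitin-activating enzyme, ptr3, rose by 0.51 and 0.43 (adjusted p = 2.20e-08 and 7.67e-08). The conjugating enzyme gene ubc4 rose by 0.41 in E112K and stood at -0.16 in E112K clr6-1 (adjusted p = 7.09e-08 and 4.69e-04). Both mms2 and ubc14 fell in each genotype, most in E112K clr6-1, at -0.33 and -0.60.

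Of 11 genes of Cdc48 and shuttle factors, rhp23 included, 6 rose and 2 fell in E112K, 7 rose and 2 fell in E112K clr6-1 against WT, and 2 rose and 5 fell against E112K, with medians of 0.25, 0.13 and -0.03. The gene cdc48 encodes the ATPase that extracts ubiquitinated proteins before degradation. It measured 1240, 1236 and 1285 CPM in WT, 2363, 2417 and 2250 in E112K and 1698, 1713 and 1756 in E112K clr6-1, in 3 separate groups, with log2 fold changes of 0.90 (SE 0.037, adjusted p = 1.50e-10) and 0.46 (SE 0.036, adjusted p = 7.65e-08). Its cofactor gene ubx3 rose by 0.73 and 0.34, while npl4 rose by 0.26 in E112K and fell by 0.41 in E112K clr6-1 on the log2 scale. The shuttle factor gene dph1 rose by 0.38 and 0.10, and ubx4 by 0.43 and 0.65.

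Among 10 ligase genes of protein quality control, 7 rose and 0 fell in E112K, 7 rose and 2 fell in E112K clr6-1 against WT, and 4 rose and 4 fell against E112K, with medians of 0.23, 0.17 and -0.02. The nuclear quality control ligase gene san1 measured 164, 160 and 160 CPM in WT, 227, 228 and 213 in E112K and 134, 130 and 138 in E112K clr6-1, with log2 fold changes of 0.46 (SE 0.034, adjusted p = 5.70e-08) and -0.27 (SE 0.035, adjusted p = 1.07e-05). The gene rkr1, of the ligase that marks stalled nascent chains in budding yeast, rose by 0.58 and 0.40. The ligase gene pub2 measured 61.9, 61.5 and 61.5 CPM in WT, 57.6, 57.4 and 58.8 in E112K and 124, 117 and 117 in E112K clr6-1, not called in E112K (-0.09) and higher in E112K clr6-1 (0.95 (SE 0.037, adjusted p = 6.10e-11)). The N-end rule ligase gene ubr1 rose by 0.26 and 0.51, and ptr1 rose by 0.45 in E112K.

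Of 20 genes listed as deubiquitinases, 3 of them proteasome genes, 6 rose and 6 fell in E112K. In E112K clr6-1 11 rose and 7 fell against WT, and 10 rose and 4 fell against E112K. The medians were 0.01, 0.14 and 0.08 in the same order. The listed ubp13 carries the deposited symbol pan2, and was called lower in E112K clr6-1 against both WT (-0.12) and E112K (-0.15). The gene ubp4 measured 41.5, 37.8 and 39.5 CPM in WT, 36.6, 46.5 and 40.6 in E112K and 288, 282 and 279 in E112K clr6-1. WT and E112K overlapped, and E112K clr6-1 lay far above both, at 2.84 (SE 0.060, adjusted p = 2.21e-13), or 7.14-fold over WT. The gene ubp3 fell in both, by 0.51 and 0.33 on the log2 scale, and ubp15 rose by 0.48 and 0.44. The gene ubp14 rose by 0.25 in E112K and 0.65 in E112K clr6-1.

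In the authors' deposited table, no proteasome gene passed an FDR of 0.05 and 2-fold in E112K (0 of 41), and 1 did in E112K clr6-1, nas2. By the FDR alone, the authors' deposited table gives 15 higher and 7 lower in E112K and 5 higher and 17 lower in E112K clr6-1. The edgeR test called 27 higher and 7 lower in E112K, and 13 and 21 in E112K clr6-1 against WT. Many of the small rises called here therefore did not pass the authors' FDR, and the reason was not tested. The authors' calls were not counted over all genes, so nothing is read from their counts about the proteasome genes.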

How the data were processed

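The labels give 3 libraries of poly(A)-selected whole-cell RNA for each of WT, E112K and E112K clr6-1. Per the submitters' processing notes, the tools included fastp, HISAT2, Bowtie2, RSEM, StringTie and DESeq2. Their steps and versions, the annotation, the build and the strand counted are not stated in the sources at hand. Per the file headers, the authors deposited a whole-number count per gene and library, which may be rounded estimates if RSEM made them, and FPKM, which for the 41 genes was proportional to the count share within 0.0116% and gives levels per length. Their deposited log2 fold changes, p-values and FDR are quoted only as the authors' deposited table.

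The 9 libraries entered 1 fit with edgeR 4.0.16 in R 4.3.3 (TMM factors 0.987 to 1.025, filterByExpr, quasi-likelihood test, Benjamini-Hochberg over 5119 of 5212 genes). The procedure was tested on simulated data. That test set no required recovery for changes as small as most of those against WT here, so nothing is read from it about them. CPM were scaled by TMM. Intervals are 95% and an SE is on the log2 scale. The common biological coefficient of variation was 0.0389. Libraries of a group differed beyond sampling noise (chi-square per degree of freedom 2.96 to 9.67), so none was counted as a repeat. Promoters, strands and overlaps come from RefSeq ASM294v3, which matched 41 of 41 genes by identifier. Since the authors' build is not named, no coordinates are given.

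Members, gene lists, motifs and the rule for named genes were chosen with earlier results of these data known, so lists are described by counts and medians beside all tested genes, without a test of the list. Genes were named by class: the 2 largest called rises and falls in each comparison, the highest and lowest WT FPKM, paralogues, changes of at least 1 on the log2 scale and members called in opposite directions against WT; of each pathway list, up to 3 with the smallest adjusted p against WT. Others were added after their values were seen. Alternatives were DESeq2 1.42.0, RLE factors, no count filter, a fit of 2 groups, the replicate number as a block and leaving out each library.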

Additional observations from a re-analysis of the deposited data

How the results depend on the processing

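Counts and medians over the 41 genes kept their direction and stayed within 1.5 times of the values given under these alternatives. They were DESeq2, RLE factors, no count filter, fits of 2 groups, a replicate block and the removal of each library. Not among them are the authors' deposited calls, which gave fewer higher genes: 15 in E112K and 5 in E112K clr6-1 against WT. Leaving out each library in turn gave 25 to 27 higher and 7 to 8 lower genes in E112K, 10 to 13 and 19 to 21 in E112K clr6-1 against WT, and 6 and 29 between the mutant genotypes, with medians of 0.14 to 0.20, -0.09 to -0.06 and -0.30 to -0.27. Among single genes none reversed. In E112K against WT, 4 genes lost a call under some alternative and 3 gained one, in E112K clr6-1 against WT 6 lost one, and between the mutant genotypes 0 of 574 values changed their call. Each lay at a log2 fold change of 0.22 or less in size, and the cause was not tested.

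The labels do not say whether replicate numbers pair the libraries. Deviations of same-numbered libraries correlated at -0.17 to 0.18, above 0.1 in 2 of 9 pairs. Those of other-numbered libraries correlated at -0.23 to 0.26. Such correlations cannot show whether libraries were prepared in pairs. With the number as a replicate block, 27 genes were higher and 9 lower in E112K, 13 and 20 in E112K clr6-1 against WT, and 6 and 29 between the mutant genotypes. The block made calls in E112K of nas2 (-0.15, adjusted p = 0.0288) and scl1 (-0.07, adjusted p = 0.0411) and ended the call of rpn10 in E112K clr6-1 against WT (-0.08, adjusted p = 0.0583), and it changed no other call of the 41 genes. Adding the 8 genes whose description names the proteasome, an alternative chosen after seeing the data, gave 33 higher and 8 lower, 16 and 24, and 8 and 35.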
